A study of Mus with 18 samples.

Results

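The 42 genes described here code for the machinery of the cell cycle and of DNA replication, and they were found by symbol among the 21401 gene symbols of each of 2 tables of RNA-seq values. A dividing cell passes from G1 into S phase when D-type and E-type cyclins activate their kinases and E2F factors switch on the replication genes. The MCM helicase is loaded at origins and DNA is copied in S phase, and Cdk1 with its cyclins then drives mitosis, in which the Aurora kinases, the spindle motors and the kinetochore separate the chromosomes. Mature muscle fibres have left the cell cycle, whereas myoblasts in growth medium and immune cells can divide. By role, the list held 2 proliferation markers, 3 D-type cyclins with Cdk4, 4 regulators of the step from G1 to S, 8 genes of origin licensing and the MCM helicase, 5 genes of DNA synthesis and nucleotide supply, 9 regulators of G2 and mitosis, and 10 genes of the spindle, the kinetochore and the chromosomal passenger complex. The 13 genes of licensing, the helicase and DNA synthesis are called replication members below, and the 19 genes of G2, mitosis, the spindle and the kinetochore mitotic members.

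The study asked whether moringa isothiocyanate-1 (MIC-1), a sulfur compound of moringa seeds, counters the response to bacterial lipopolysaccharide (LPS) in muscle cells and muscle tissue. The first table holds 9 libraries labelled as C2C12, a wild-type mouse myoblast line, with 3 libraries each for a saline vehicle control, LPS at 1 μg/mL, and LPS at 1 μg/mL with MIC-1 at 10 μM for 24 h (LPS-MIC-1). The study's text names a lower MIC-1 concentration for the sequenced cells than the labels do. The second table holds 9 libraries of gastrocnemius muscle, a calf muscle, from wild-type C57BL/6 male mice, with 3 libraries each for saline vehicle, LPS injected intraperitoneally at 10 mg/kg, and LPS at 10 mg/kg after gavage with MIC-1 at 80 mg/kg for 3 days. Muscles were taken 16 h after LPS. For MIC-1 the labels name 10% DMSO as the gavage vehicle, and for the LPS group they name no gavage, so MIC-1 and its vehicle cannot be told apart in LPS-MIC-1 against LPS. For the control mice the labels name saline, whereas the study's text names oral 10% DMSO. Nothing in the labels says that the libraries came from separate cultures, so the p-values measure the spread between these libraries, which may be technical.

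Values are FPKM, a read measure scaled to the length of the transcript and the depth of the library, so levels of different genes can be set side by side within a table. Means are given ± SD over 3 libraries. Differences are log2 differences of log2(FPKM + 0.1) ± SE from limma, which understate the change of low genes. A gene counts as called when it differed by more than 1 on the log2 scale with an adjusted p under 0.001 in the C2C12 table or under 0.05 in muscle, among genes with a mean FPKM over 1. In bulk RNA, fewer cells of a type and less RNA per cell cannot be told apart.

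The libraries of the C2C12 table did not all carry the markers of their label. Of a list of 17 macrophage genes 14 were in the table, and their summed level was 11410 to 11460 FPKM in the libraries labelled control, 8632 to 8885 FPKM in those labelled LPS, and 89.8 to 322 FPKM in those labelled LPS-MIC-1. A list of myoblast genes (12 of 13 in the table) ran the other way, with sums of 2.87 to 3.06, 1.40 to 4.12 and 1121 to 1384 FPKM. Desmin (Des), an intermediate filament protein of muscle cells, stood at 0.277 FPKM or less in the libraries labelled control, and at 347 to 488 FPKM in those labelled LPS-MIC-1. None of the 14 macrophage genes and none of the 12 myoblast genes was at 0 in every library. Because markers of cell type separate the LPS-MIC-1 libraries from the other 6, treatment and cell identity cannot be told apart in any comparison of LPS-MIC-1 with control or with LPS in this table. The control and LPS libraries both carried macrophage markers, and their comparison lies between libraries that lack the markers of the labelled line.

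In the C2C12 table, LPS libraries had lower values than control libraries for nearly the whole list. Of the 42 genes 33 fell and 1 rose, while 8 did not pass the test. The background was 10.0% of 10877 genes called lower and 10.9% called higher. The median difference was −2.05 over the list and 0 over all genes tested. LPS-MIC-1 libraries were higher than LPS libraries for 25 genes and lower for 1, against a background of 24.3% higher and 25.6% lower, with a median of 1.23 over the list and −0.05 over all genes. Relative to control, LPS-MIC-1 libraries were higher for 4 and lower for 15 of the 42 genes, against 21.1% and 22.1% of all genes, with a median of −0.59 beside −0.06. Without LPS-MIC-1 replicate 1, the library of that group with the highest macrophage sum, 24 genes were called higher and 2 lower than in LPS, and 3 higher and 15 lower than in control. Each of these comparisons shares libraries with another one, so their counts are not independent.

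**Figure D1:**
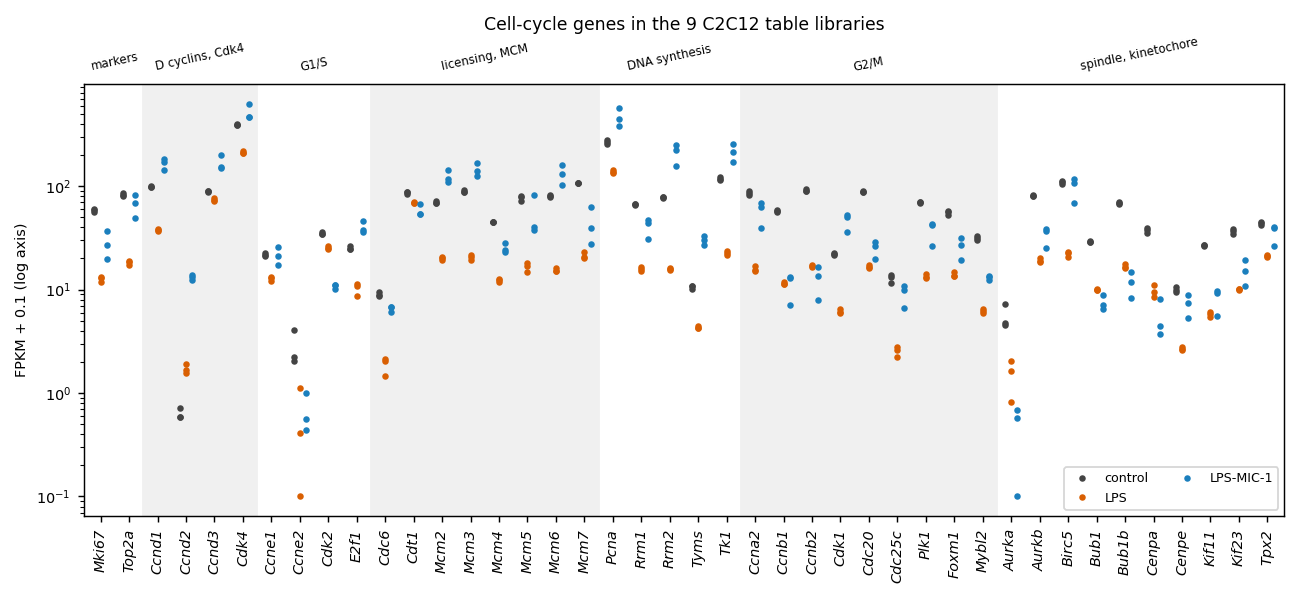
FPKM + 0.1 on a log axis for the 42 genes in the 9 libraries of the C2C12 table, 1 point per library, grouped by role and coloured by label. The LPS points lie below the control points for 41 genes on average, and Ccnd2 is the exception.

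The proliferation markers followed the same course. Mki67, the Ki-67 antigen found in the nuclei of cycling cells, had 56.4, 59.0 and 60.7 FPKM in control, 11.8, 12.8 and 13.1 FPKM in LPS, and 37.0, 19.6 and 27.0 FPKM in LPS-MIC-1. The 3 groups did not overlap, with control highest and LPS lowest. Mki67 fell by 2.21 on the log2 scale in LPS against control (SE 0.20, adjusted p = 2.43e-05 by limma), and was higher by 1.09 ± 0.20 in LPS-MIC-1 than in LPS (adjusted p = 0.000857). Top2a, the topoisomerase that untangles replicated chromosomes, had 80.6, 82.5 and 85.8 FPKM in control, 17.4, 18.4 and 18.7 FPKM in LPS, and 81.7, 49.3 and 68.7 FPKM in LPS-MIC-1. The LPS libraries lay below all others, and the LPS-MIC-1 libraries overlapped with control. Against control, LPS-MIC-1 was lower for Mki67 (−1.12 ± 0.20, adjusted p = 0.000815), and the difference for Top2a was −0.35 ± 0.16 (adjusted p = 0.0731). Both Mki67 calls of LPS-MIC-1 were fragile. Leaving out any 1 of the 9 libraries ended the call against LPS (0.87 to 1.12), except LPS-MIC-1 replicate 2, and the call against control (−0.89 to −1.15), except LPS-MIC-1 replicate 1.

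The D-type cyclins, which pair with Cdk4 and Cdk6 to start G1 progression, did not move together. Ccnd1, cyclin D1, had 97.2, 99.9 and 97.7 FPKM in control, 38.5, 37.8 and 37.0 FPKM in LPS, and 145, 173 and 185 FPKM in LPS-MIC-1. It fell by 1.38 on the log2 scale in LPS (SE 0.08, adjusted p = 2.79e-06) and rose by 2.14 ± 0.08 from LPS to LPS-MIC-1 (adjusted p = 7.16e-08). The LPS-MIC-1 libraries were all above control, with a difference of 0.76 ± 0.08 that was under the fold threshold. Ccnd2, cyclin D2, was the gene of the list that rose in LPS, from 0.490, 0.617 and 0.488 FPKM in control to 1.45, 1.82 and 1.58 FPKM (1.44 ± 0.13, adjusted p = 3.20e-05), and at a pseudocount of 1 this rise was 0.77 and not called. In LPS-MIC-1 it stood at 12.2, 13.8 and 13.1 FPKM, which was 4.38 ± 0.13 above control (adjusted p = 2.12e-08), the largest rise in the list. Control lay under the filter level of 1 FPKM, and without the filter the difference from control was called too. The 3 groups of Ccnd2 did not overlap.

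Ccnd3, cyclin D3, had 89.8, 88.5 and 90.7 FPKM in control, 73.0, 76.8 and 71.8 FPKM in LPS, and 155, 150 and 199 FPKM in LPS-MIC-1. LPS libraries were the lowest without overlap, but the difference of −0.28 ± 0.10 from control did not pass the test (adjusted p = 0.0380). LPS-MIC-1 was higher than LPS by 1.17 ± 0.10 (adjusted p = 8.05e-06). Their partner Cdk4 was the most abundant kinase of the list, at 394 ± 5.69 FPKM in control, 212 ± 5.10 FPKM in LPS and 521 ± 92.3 FPKM in LPS-MIC-1. Only its rise from LPS to LPS-MIC-1 was called (1.28 ± 0.11, adjusted p = 7.54e-06), and with quantile normalization that call (0.92) and the one of Ccnd3 (0.81) were lost, while Cdk4 was called lower in LPS than in control (−1.17).

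Among the regulators of the step from G1 to S, 3 genes showed 3 different patterns. E2f1, the transcription factor that switches on replication genes, had 24.8, 26.1 and 24.8 FPKM in control, 11.3, 8.52 and 10.7 FPKM in LPS, and 37.4, 36.3 and 45.7 FPKM in LPS-MIC-1. The groups did not overlap, and E2f1 fell by 1.31 in LPS (SE 0.12, adjusted p = 3.33e-05) and rose by 1.96 ± 0.12 from LPS to LPS-MIC-1 (adjusted p = 1.14e-06). Cdk2, the kinase that pairs with cyclins E and A in S phase, had 35.7, 34.7 and 34.6 FPKM in control, 24.4, 25.04 and 26.3 FPKM in LPS, and 11.1, 11.02 and 9.99 FPKM in LPS-MIC-1. It was the 1 gene of the list that fell from LPS to LPS-MIC-1 (−1.23 ± 0.06, adjusted p = 1.89e-07), and it was 1.70 below control (SE 0.06, adjusted p = 3.37e-08).

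The E-type cyclins, the partners of Cdk2 at the start of S phase, were not called in any of these comparisons. Ccne1 had 21.5, 22.3 and 20.9 FPKM in control, 12.98, 12.1 and 13 FPKM in LPS, and 21.0, 17.1 and 25.5 FPKM in LPS-MIC-1. Its LPS libraries lay below all others, with a difference of −0.76 ± 0.13 from control (adjusted p = 0.00105). Ccne2 was low, at 1.96, 2.15 and 3.94 FPKM in control, 0, 0.308 and 1.02 FPKM in LPS, and 0.466, 0.339 and 0.908 FPKM in LPS-MIC-1. Its control libraries lay above the other 6, whereas LPS and LPS-MIC-1 overlapped, and its SE of 0.80 was the largest in the list.

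Most replication members fell in LPS and rose in LPS-MIC-1. Of the 13 genes 11 were called lower in LPS than in control (median −2.13), and 11 were called higher in LPS-MIC-1 than in LPS (median 1.82). Over all genes tested, the shares were 10.0% and 24.3%. Mcm6, a subunit of the helicase, had 78.8, 79.5 and 81.3 FPKM in control, 16.0, 15.1 and 15.2 FPKM in LPS, and 132, 104 and 160 FPKM in LPS-MIC-1. Mcm3, another subunit, had 88.6, 92.6 and 88.4 FPKM in control, 19.1, 20.7 and 21.4 FPKM in LPS, and 140, 126 and 168 FPKM in LPS-MIC-1. For both, LPS was lowest and LPS-MIC-1 highest, with no overlap. The rises from LPS to LPS-MIC-1 were 3.07 ± 0.13 for Mcm6 (adjusted p = 1.40e-07) and 2.81 ± 0.10 for Mcm3 (adjusted p = 4.58e-08).

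The 6 MCM subunits, which form 1 ring, kept close to each other in control, between 45.1 FPKM for Mcm4 and 108 FPKM for Mcm7 on average. They stood between 12.2 and 21.2 FPKM in LPS. In LPS-MIC-1 they spread from 25.04 FPKM for Mcm4 to 145 FPKM for Mcm3. Mcm5 (53.4 ± 25.04 FPKM) and Mcm7 (43.1 ± 17.7 FPKM) varied most, in proportion to their means, between the LPS-MIC-1 libraries, and for both the first library was the highest, with 82.3 and 62.4 FPKM. That same library had the highest macrophage sum of the LPS-MIC-1 group, 322 FPKM against 89.8 and 104 FPKM, and the part of this in the values was not tested. The call of Mcm5 against LPS (1.53 to 1.76) and that of Mcm7 against control (−1.38 to −1.41) held only without LPS-MIC-1 replicate 1 or 2 among the fits that left out 1 library. Relative to control, Mcm7 was lower (−1.41 ± 0.25, adjusted p = 0.000855) and the other 5 subunits were not called, with differences from −0.85 for Mcm4 to 0.81 for Mcm2. Single libraries also decided 3 helicase calls: Mcm4 was not called against LPS without LPS-MIC-1 replicate 3 (0.95; at a pseudocount of 1 it was 0.98 and not called either), Mcm5 not in LPS against control without LPS replicate 1 (−2.15), and Mcm7 was called against LPS without LPS-MIC-1 replicate 2 (1.22). Of the licensing factors that load the ring, Cdc6 followed the helicase (8.92 ± 0.427, 1.78 ± 0.358 and 6.45 ± 0.441 FPKM), while Cdt1 was not called in any comparison (85.9 ± 1.88, 68.7 ± 0.788 and 58.4 ± 7.29 FPKM).

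The genes that supply DNA synthesis held the largest rises from LPS to LPS-MIC-1 in the list. Rrm2, the regulated subunit of ribonucleotide reductase, had 78.9, 77.1 and 78.7 FPKM in control, 15.9, 15.8 and 15.4 FPKM in LPS, and 223, 158 and 250 FPKM in LPS-MIC-1. Tk1, the thymidine kinase of the salvage pathway, had 115, 122 and 117 FPKM in control, 22.5, 23.3 and 21.5 FPKM in LPS, and 215, 171 and 254 FPKM in LPS-MIC-1. The groups of both genes lay in the order LPS, control, LPS-MIC-1 without overlap. Rrm2 was higher in LPS-MIC-1 than in LPS by 3.71 ± 0.15 (adjusted p = 7.98e-08) and than in control by 1.40 ± 0.15 (adjusted p = 3.25e-05, lost with quantile normalization at 1.00). Tk1 was higher than in LPS by 3.23 ± 0.13 (adjusted p = 7.60e-08), and its difference of 0.84 ± 0.13 from control stayed under the fold threshold.

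Tyms, thymidylate synthase, was also higher than control (10.5 ± 0.407 and 30.1 ± 2.94 FPKM, a difference of 1.51 ± 0.08, adjusted p = 5.39e-07). Its near-identical copy Tyms-ps was listed at 0.832 FPKM or less, and reads could be split between the pair. Rrm1, the large subunit of the reductase, and Pcna, the sliding clamp of the polymerases, rose from LPS to LPS-MIC-1 by 1.31 and 1.73 on the log2 scale. Neither was called against control, with −0.75 ± 0.14 for Rrm1 and 0.78 ± 0.13 for Pcna. With quantile normalization Pcna was called lower in LPS than in control (−1.07).

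Nearly all mitotic members fell in LPS. Of the 19 genes 18 were called lower in LPS than in control (median −2.07), and 7 were called higher in LPS-MIC-1 than in LPS (median 0.73). The shares of all genes tested were 10.0% and 24.3%. Against control, 12 of the 19 were lower and 1 was higher in LPS-MIC-1 (median −1.29). Of the 13 replication members 1 was lower and 2 were higher (median 0.68). Over all genes tested, 22.1% were lower and 21.1% higher, so the 2 of 13 did not exceed the latter share. The difference between the mitotic and the replication members was not tested, and both sets were summed as a description. The ratio of the summed FPKM of the replication members to that of the mitotic members was 1.13, 1.17 and 1.16 in the control libraries. It was 1.65, 1.67 and 1.75 in the LPS libraries and 3.04, 3.82 and 3.46 in the LPS-MIC-1 libraries. The ratios of the 3 groups did not overlap, and the smallest p that an exact permutation test of 3 against 3 libraries allows is 0.1.

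**Figure D2:**
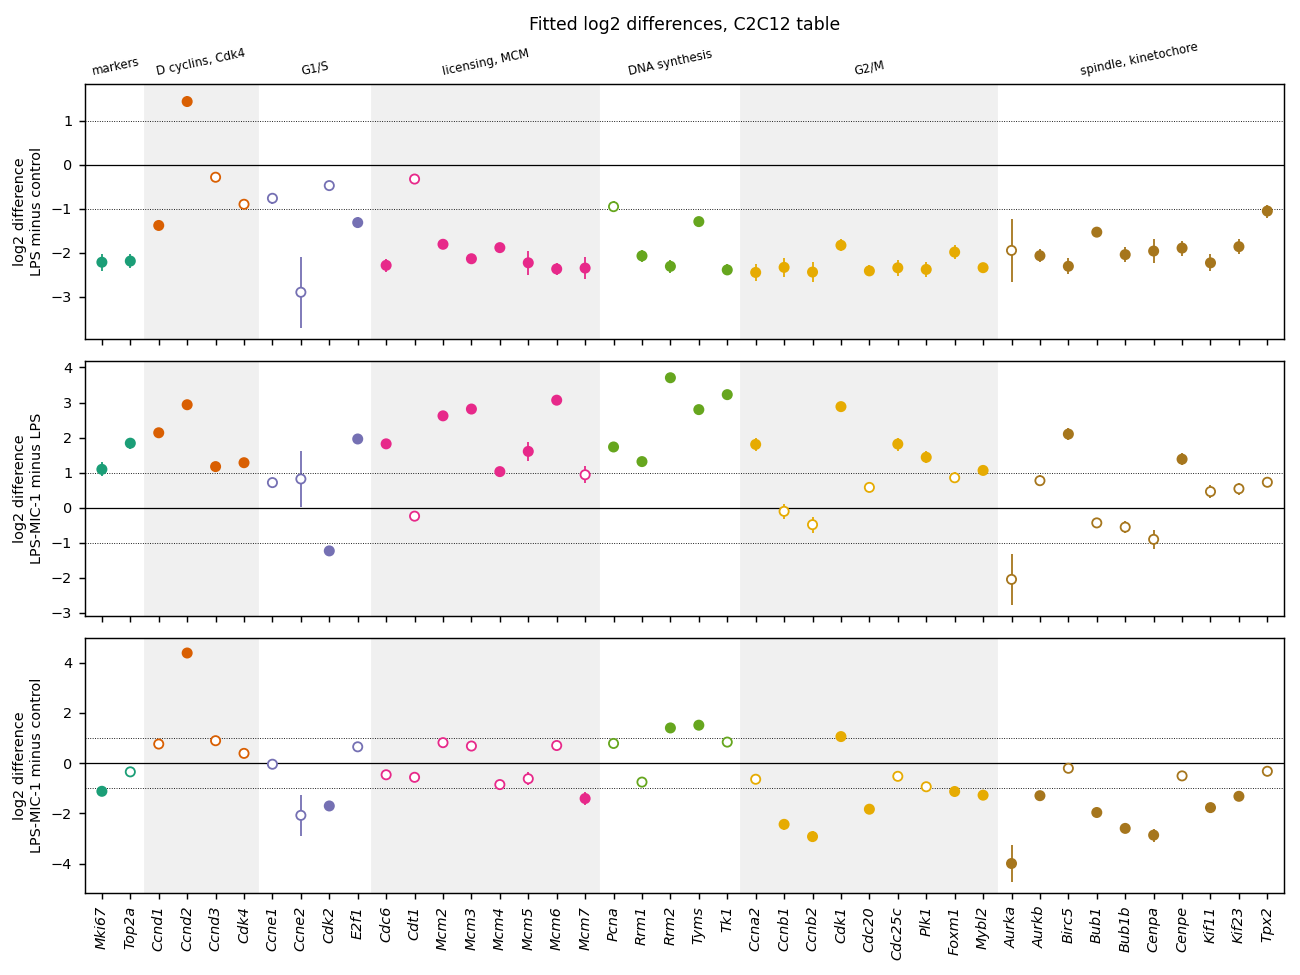
Log2 differences ± SE of the 42 genes in the C2C12 table for LPS minus control, LPS-MIC-1 minus LPS and LPS-MIC-1 minus control, grouped by role. Filled points are called and dotted lines mark a difference of 1. In the lowest panel 12 of the 19 mitotic members and 1 of the 13 replication members are called lower, against 22.1% of all genes.

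Within the mitotic kinase itself the catalytic subunit and its B-type cyclins separated. Cdk1, the kinase that drives entry into mitosis, had 21.4, 21.9 and 22.3 FPKM in control, 5.82, 6.46 and 6.01 FPKM in LPS, and 50.0, 35.9 and 52.7 FPKM in LPS-MIC-1. It was highest in LPS-MIC-1 without overlap, by 2.88 ± 0.13 above LPS (adjusted p = 1.99e-07) and by 1.06 ± 0.13 above control (adjusted p = 0.000116), and the latter call was lost with quantile normalization (0.98). Its partners Ccnb1 and Ccnb2, the B-type cyclins, stood at 57.8 ± 1.16 and 91.0 ± 3.09 FPKM in control, at 11.4 ± 0.217 and 16.7 ± 0.365 FPKM in LPS, and at 11.1 ± 3.51 and 12.5 ± 4.29 FPKM in LPS-MIC-1. Against control, Ccnb1 was lower in LPS-MIC-1 by 2.43 (SE 0.22, adjusted p = 1.24e-05) and Ccnb2 by 2.92 (SE 0.23, adjusted p = 5.29e-06). Against LPS they differed by −0.10 ± 0.22 and −0.48 ± 0.23 and were not called. The ratio of Cdk1 to Ccnb1, a pair chosen after the values were seen, was 0.378 ± 0.00787 for control, 0.533 ± 0.0189 for LPS and 4.33 ± 0.701 for LPS-MIC-1. Without LPS-MIC-1 replicate 1 or 3, Cdk1 stood 0.99 or 0.95 above control and was no longer called.

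Ccna2, cyclin A2 of S phase and G2, had 86.5, 88.8 and 83.0 FPKM in control, 15.0, 17.0 and 15.2 FPKM in LPS, and 62.7, 39.1 and 68.6 FPKM in LPS-MIC-1. Cdc25c, a phosphatase that activates Cdk1, had 11.5, 13.2 and 13.7 FPKM in control, 2.49, 2.70 and 2.15 FPKM in LPS, and 10.7, 6.58 and 9.76 FPKM in LPS-MIC-1. For both genes LPS-MIC-1 lay between LPS and control without overlap, with rises of 1.80 ± 0.19 and 1.82 ± 0.19 over LPS (adjusted p = 2.92e-05 and 2.55e-05). The polo kinase Plk1 (1.44 ± 0.17) and the transcription factor Mybl2 (1.06 ± 0.07) were also called higher than in LPS, the latter not at a pseudocount of 1 (0.97). Foxm1, the factor that drives mitotic genes, and Cdc20, the activator of the anaphase complex, were not (0.85 ± 0.16 and 0.58 ± 0.12), and both were called lower than control (−1.13 ± 0.16 and −1.83 ± 0.12). The Foxm1 call was lost without any control library or without LPS-MIC-1 replicate 2 (−0.93 to −1.17), and without the latter Foxm1 was called above LPS (1.05). Plk1 was called below control without LPS-MIC-1 replicate 3 (−1.07).

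Of the 10 genes of the spindle, the kinetochore and the passenger complex, 2 were called higher in LPS-MIC-1 than in LPS. This was near the share of all genes, 24.3%. Birc5, survivin of the passenger complex, had 110, 106 and 113 FPKM in control, 22.6, 23.1 and 20.5 FPKM in LPS, and 107, 68.3 and 117 FPKM in LPS-MIC-1. It rose by 2.10 ± 0.18 from LPS to LPS-MIC-1 (adjusted p = 8.33e-06), and LPS-MIC-1 overlapped with control. Cenpe, a kinetochore motor, was the other one (1.38 ± 0.17, adjusted p = 8.23e-05). The remaining 8 were not called, and for 4 of them the difference from LPS was negative: Bub1 (−0.43), Bub1b (−0.56), Cenpa (−0.90) and Aurka (−2.05).

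Against control, where 22.1% of all genes were called lower, 7 of these 10 genes were lower in LPS-MIC-1. They were the kinases Aurka, Aurkb and Bub1, the spindle checkpoint protein Bub1b, the centromeric histone Cenpa, and the motors Kif11 and Kif23, with differences from −1.29 for Aurkb to −3.99 for Aurka. Aurka was low throughout, at 7.203, 4.67 and 4.42 FPKM in control, 1.52, 1.96 and 0.727 FPKM in LPS, and 0.583, 0.473 and 0 FPKM in LPS-MIC-1. Its groups did not overlap, but its SE was 0.72, and the difference of LPS from control did not pass the test (adjusted p = 0.0437). Its call in LPS-MIC-1 held without LPS-MIC-1 replicate 1 or 3 and was lost without any of the other 7 libraries (−3.77 to −4.37), and that of Kif23 was lost without control replicate 3 (−1.28). In LPS against control, the calls of Cenpa (−1.96 ± 0.26) and Tpx2 (−1.05 ± 0.15), a spindle assembly factor, were lost without any of the 6 libraries compared (−1.86 to −2.07 and −1.03 to −1.07). Without LPS-MIC-1 replicate 1, Cenpa was called below LPS (−1.24).

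Further genes of the same processes, taken from lists that leave out the 42 members, were counted in the same way. Over all genes tested, 10.0% were called lower in LPS than in control, and 24.3% higher in LPS-MIC-1 than in LPS. Against control, LPS-MIC-1 had 21.1% of all genes called higher and 22.1% lower. Of 38 further replication genes tested in the C2C12 table, 28 were lower in LPS than in control, 31 were higher in LPS-MIC-1 than in LPS, and against control 9 were higher and 1 was lower. The largest falls in LPS were those of Mcm10 (−2.44 ± 0.11), an initiation factor, and Pole (−2.39 ± 0.09), the catalytic subunit of polymerase epsilon. The largest rises in LPS-MIC-1 over LPS were those of Prim1 (3.84 ± 0.09), a primase subunit, and Orc6 (3.63 ± 0.10), a subunit of the origin recognition complex. Of 61 further mitotic genes, 48 were lower in LPS, 32 were higher in LPS-MIC-1 than in LPS, and against control 1 was higher and 13 were lower, among them Racgap1 (−2.41 ± 0.29) of the cytokinesis complex and the kinesin Kif2c (−1.89 ± 0.19). Against control, the 13 of 61 mitotic genes called lower and the 9 of 38 replication genes called higher lay near the shares of all genes. Of 18 E2F factors, pocket proteins and MuvB subunits, 4 rose and 4 fell from LPS to LPS-MIC-1, near the shares of all genes (24.3% and 25.6%). Among them were E2f7, an E2F repressor, at 3.16 ± 0.22 and Rbl2, the pocket protein p130, at −5.07 ± 0.51.

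In gastrocnemius muscle most of the list was near the floor of the measurement. Of the 42 genes 11 had a mean FPKM over 1 and entered the test: Ccnd1, Ccnd2, Ccnd3, Cdk4, Cdk2, Mcm2, Mcm3, Pcna, Rrm1, Tyms and Birc5. A total of 40 were above 0 in at least 3 libraries, Aurka was listed at 0 in all 9, and Mcm5 was above 0 in 1 library. The muscle libraries carried the markers of their tissue, with summed levels of 15 mature fibre genes from 215800 to 288800 FPKM. The authors' mean normalized count over the LPS and LPS-MIC-1 libraries was divided among these libraries in proportion to FPKM. In LPS-MIC-1 replicate 1 it gave about 335 counts for Ccnd3 but about 7.05 for Mki67. In replicates 2 and 3 Mki67 had about 2.92 and 139 counts.

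**Figure D3:**
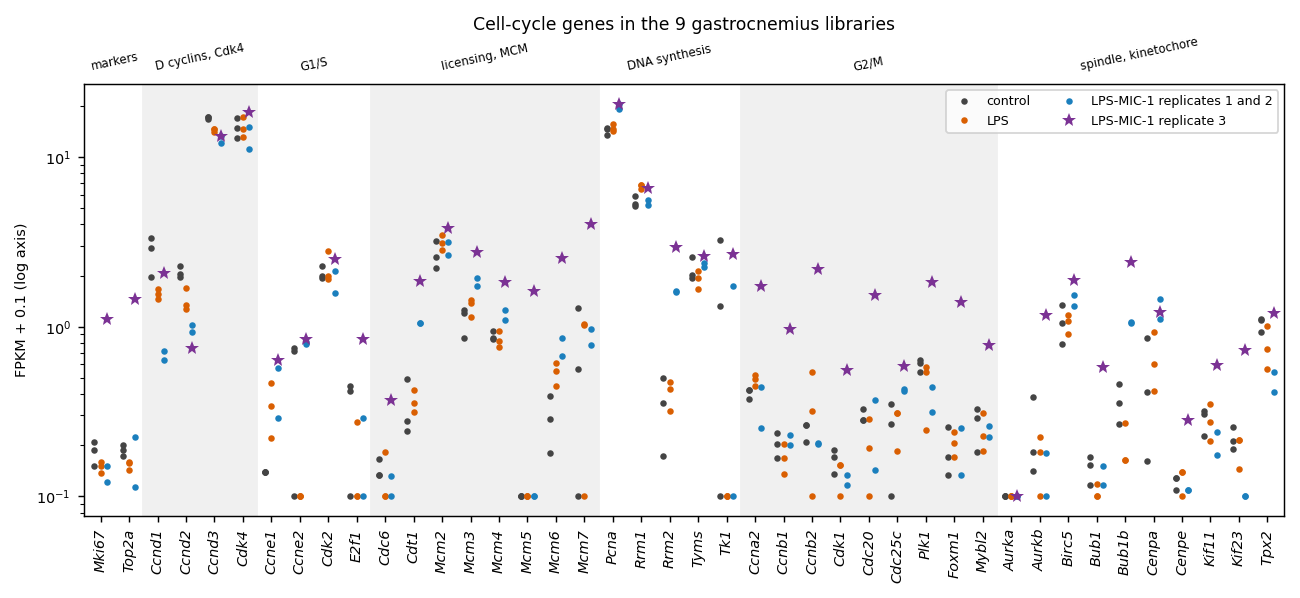
FPKM + 0.1 on a log axis for the 42 genes in the 9 muscle libraries, 1 point per library, with LPS-MIC-1 replicate 3 drawn as a star and genes listed at 0 lying at 0.1. The star is the highest of the 9 points for 34 of the 42 genes.

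LPS-MIC-1 replicate 3 stood apart from the other 8 muscle libraries in this list. It held the highest value for 34 of the 42 genes, whereas it was the highest library for 13.9% of 15434 genes, and no other library was the highest for more than 3 members. The other 8 genes were the 3 D-type cyclins, Cdk2, Rrm1, Tk1, Cenpa and Aurka. The list was not alone in this. Of 1076 genes under 1 FPKM on average in replicates 1 and 2 and over 5 FPKM in the C2C12 control libraries, 49.6% were highest in replicate 3. Of the 28 members of that kind, 25 were (89.3%). The median log2 ratio of replicate 3 to the mean of replicates 1 and 2 was 1.45 over the list, 2.16 over the mitotic members with Mki67 and Top2a, 0.83 over the replication members, and −0.05 over all genes tested.

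Mki67 had 0.0888, 0.110 and 0.0522 FPKM in control, 0.0522, 0.0598 and 0.0370 FPKM in LPS, and 0.0509, 0.0211 and 1.007 FPKM in LPS-MIC-1. Top2a had 0.0875, 0.102 and 0.0735 FPKM in control, 0.0441, 0.0590 and 0.0584 FPKM in LPS, and 0.0143, 0.125 and 1.37 FPKM in LPS-MIC-1. For both genes 8 libraries lay within 0.125 FPKM of 0, and replicate 3 alone lay above 1 FPKM. In approximate counts, Mki67 had 139 in replicate 3 and at most 8.29 in the other 5 libraries of LPS and LPS-MIC-1. Mcm5 was listed at 1.52 FPKM in replicate 3, about 69.2 counts, and at 0 in the other 8 libraries. Further examples were Ccnb2, at 2.10 FPKM in replicate 3 and at most 0.439 FPKM elsewhere, Kif23, at 0.630 FPKM and at most 0.158 FPKM elsewhere, and Mcm7, at 3.90 FPKM and at most 1.18 FPKM elsewhere.

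Macrophage markers moved with these genes in the same library. The 14 macrophage genes summed to 217 FPKM in replicate 3, to 41.5 and 40.0 FPKM in replicates 1 and 2, and to between 19.8 and 29.8 FPKM in control and LPS. All 14 were highest in replicate 3, and Lyz2, the lysozyme of myeloid cells, stood at 78.3 FPKM there against 5.27 and 3.93 FPKM in replicates 1 and 2. The summed neutrophil markers did not set it apart, with 15.0, 20.04 and 18.8 FPKM in the 3 LPS-MIC-1 libraries and at most 2.74 FPKM in control and LPS. The myoblast sum of replicate 3, 1886 FPKM, lay within the range of control and LPS (1845 to 1943 FPKM), but Des made up 1714 FPKM of it. The next 2 markers by abundance were lower in all 3 LPS-MIC-1 libraries than in control and LPS. Dmpk had 136, 150 and 131 FPKM in LPS-MIC-1 and at least 213 FPKM in control and LPS. Myod1 had 4.69, 5.27 and 4.21 FPKM, against at least 19.6 FPKM.

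The excess of replicate 3 over the mean of replicates 1 and 2 was set beside the levels of the C2C12 table, which was normalized separately. As a percentage of the mean of the libraries labelled C2C12 control, the median excess was 1.59% over the 42 genes (quartiles 1.298% and 1.96%), 1.62% over the mitotic members with Mki67 and Top2a, and 1.66% over the 14 macrophage genes (quartiles 1.43% and 1.76%). Over all 1076 genes under 1 FPKM on average in replicates 1 and 2 and over 5 FPKM in those control libraries it was 1.63%. Those genes were picked by the same values that form the percentage. Over all 9475 genes tested in muscle it was −1.55% (quartiles −10.65% and 1.62%). Set against the libraries labelled C2C12 LPS, the same medians were 6.89% for the mitotic members with Mki67 and Top2a, 1.71% for the macrophage genes and 2.10% for the 1076 genes. Against those labelled LPS-MIC-1 they were 3.49%, 196% and 4.30%. The macrophage genes summed to 89.8 to 322 FPKM in the libraries labelled C2C12 LPS-MIC-1, beside 11410 to 11460 FPKM in those labelled control. So low a base makes a percentage large, and the source of the excess was not tested.

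Across the 39 genes with an excess above 0, the log10 of the excess and the log10 of the C2C12 control mean had a Pearson r of 0.864 and a Spearman rho of 0.738. With the C2C12 LPS means r was 0.727 and rho 0.580, and with the LPS-MIC-1 means 0.653 and 0.536. The points are genes of 1 library and share its depth, so the values are descriptions. The 3 genes without an excess were Ccnd2, Cenpa and Aurka. The part of RNA of other cells or of another library in the values of replicate 3 was not tested.

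**Figure D4:**
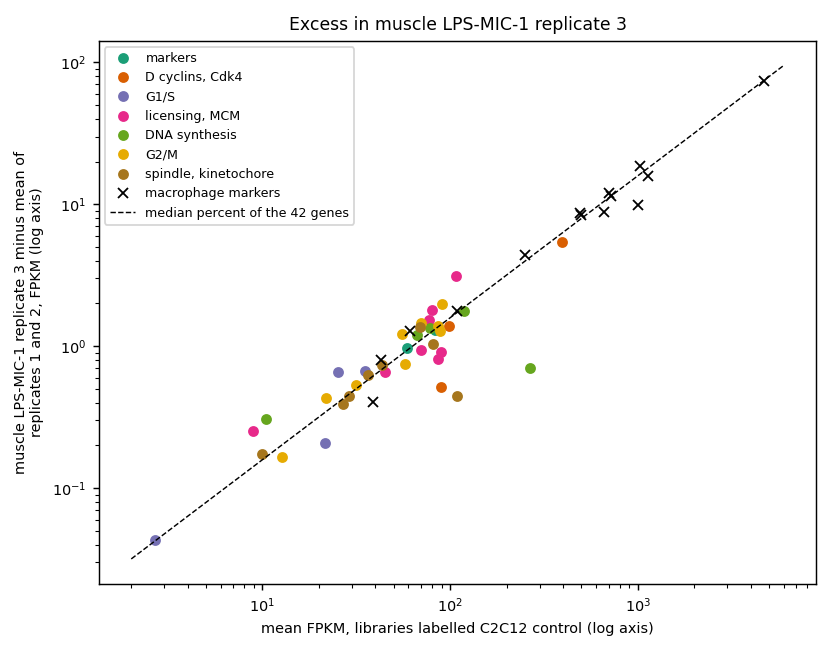
Excess of muscle LPS-MIC-1 replicate 3 over the mean of replicates 1 and 2 (FPKM, log axis) against the mean FPKM in the libraries labelled C2C12 control (log axis), for the 39 cell-cycle genes with an excess above 0 (coloured by role) and the 14 macrophage markers (crosses). The dashed line marks 1.59% of the control mean, the median over the 42 genes, so the cell-cycle points lie around it by construction. These points run from 0.264% (Pcna) to 2.93% (Tyms), and the macrophage points from 0.996% (Fcer1g) to 2.08% (Itgam).

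In muscle, LPS against control gave no call among the 11 members tested, against 0.654% of 9475 genes called higher and 0.591% called lower. At an unadjusted p under 0.05, limma found 1 of the 11 higher and 2 lower. The 3 D-type cyclins were the tested members whose LPS libraries all lay below the control libraries, an order found in 17.7% of genes. Ccnd3 had 16.5, 17.0 and 17.1 FPKM in control, and 13.9, 14.4 and 14.6 FPKM in LPS, with a difference of −0.24 ± 0.05 (adjusted p = 0.0172) that was under the fold threshold. Rrm1 alone lay above control in all LPS libraries (18.8% of genes did), at 5.07, 5.83 and 5.16 FPKM in control and 6.72, 6.70 and 6.35 FPKM in LPS (0.30 ± 0.10, adjusted p = 0.0758). Its LPS-MIC-1 libraries had 5.44, 5.14 and 6.49 FPKM. The median difference of the 11 genes was 0.02.

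LPS-MIC-1 against control gave 2 calls in muscle, both lower and both D-type cyclins, against 6.12% of genes called lower and 9.33% called higher. Ccnd2 had 2.17, 1.86 and 1.93 FPKM in control, 1.25, 1.17 and 1.59 FPKM in LPS, and 0.827, 0.924 and 0.651 FPKM in LPS-MIC-1. The 3 groups did not overlap, and Ccnd2 fell by 1.22 from control to LPS-MIC-1 (SE 0.19, adjusted p = 0.000627). Ccnd1 had 3.21, 1.86 and 2.81 FPKM in control, 1.46, 1.36 and 1.57 FPKM in LPS, and 0.620, 0.541 and 1.96 FPKM in LPS-MIC-1. Replicates 1 and 2 of LPS-MIC-1 were the lowest of the 9 libraries, and replicate 3 lay among the control values. Ccnd1 was lower in LPS-MIC-1 than in control by 1.44 (SE 0.42, adjusted p = 0.0185), a call lost when any of 4 libraries was left out (control replicate 1 or 3, LPS-MIC-1 replicate 1 or 2), with differences from −1.13 to −1.38 (adjusted p from 0.0534 to 0.0623). At a pseudocount of 1 neither cyclin was called (−0.88 for Ccnd1 and −0.73 for Ccnd2).

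Ccnd3 continued downwards in LPS-MIC-1, with 13.3, 11.9 and 13.1 FPKM, a difference of −0.40 ± 0.05 from control (adjusted p = 0.000224) that was under the fold threshold. The summed endothelial markers also lay below control in both LPS groups, at 141 to 148 FPKM in control, 94.8 to 96.7 FPKM in LPS and 105 to 119 FPKM in LPS-MIC-1. Single markers did not all follow the sum. Of the 3 most abundant, Egfl7 and Cdh5 lay below control in both groups. Esam had 19.4, 17.5 and 16.0 FPKM in control, but 22.4, 30.7 and 23.8 FPKM in LPS-MIC-1. The part of endothelial RNA in the cyclin values was not tested. Cdk4 did not follow its cyclins, with group means of 14.8, 14.8 and 14.8 FPKM and an SE of 0.19 on each log2 difference.

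**Figure D5:**
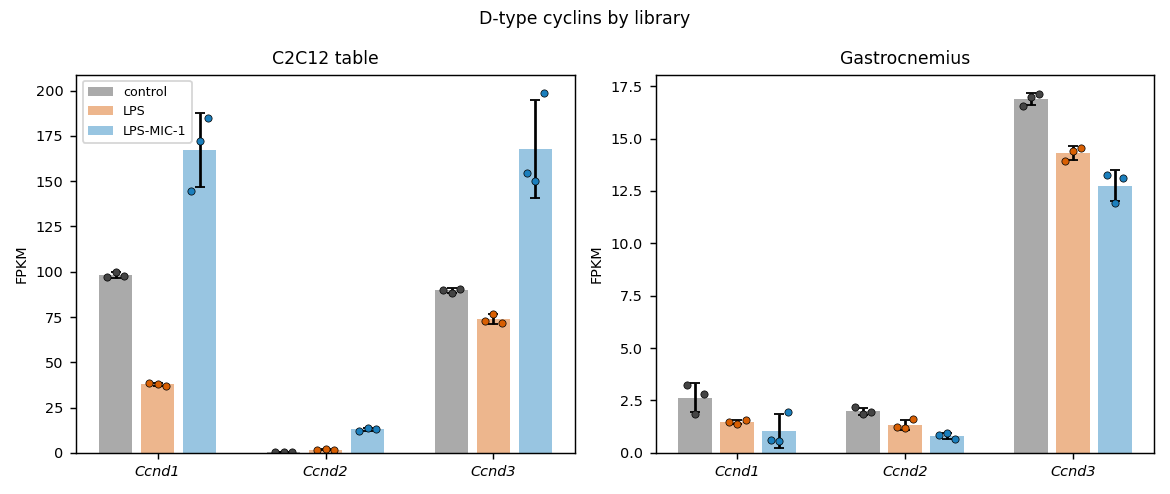
FPKM of the 3 D-type cyclins in the C2C12 table (left) and in gastrocnemius muscle (right), with bars for the mean, error bars for the SD of 3 libraries and points for single libraries. In muscle the LPS-MIC-1 bar is the lowest for each cyclin, whereas in the C2C12 table it is the highest for each.

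LPS-MIC-1 against LPS gave no call in muscle among the 11 members, against a background of 9.67% higher and 5.44% lower, and at an unadjusted p under 0.05 limma found 4 higher and 2 lower. When LPS-MIC-1 replicate 3 was left out, Ccnd1 became a call below LPS (−1.20, adjusted p = 0.00465). Pcna had 13.4, 14.8 and 14.5 FPKM in control, 14.1, 15.6 and 14.6 FPKM in LPS, and 20.4, 19.1 and 20.5 FPKM in LPS-MIC-1. All 3 LPS-MIC-1 libraries, replicate 3 among them, lay together above the other 6, with a difference of 0.44 ± 0.06 from LPS (adjusted p = 0.000314) that was under the fold threshold. Mcm3 had 1.11, 1.16 and 0.754 FPKM in control, 1.28, 1.33 and 1.03 FPKM in LPS, and 1.83, 1.64 and 2.65 FPKM in LPS-MIC-1. It too was higher in each LPS-MIC-1 library than in the other 6 (0.68 ± 0.24 over LPS, adjusted p = 0.0365, and 0.94 ± 0.24 over control, adjusted p = 0.00855), both under the fold threshold. Without control replicate 1 or 2 or LPS-MIC-1 replicate 1 or 2, Mcm3 was called above control (1.01 to 1.08).

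The other tested members were not called in any muscle comparison. Tyms had 2.48, 1.84 and 1.90 FPKM in control, 1.83, 1.56 and 2.02 FPKM in LPS, and 2.16, 2.28 and 2.53 FPKM in LPS-MIC-1. Birc5 had 1.25, 0.950 and 0.687 FPKM in control, 1.08, 0.805 and 0.979 FPKM in LPS, and 1.23, 1.44 and 1.78 FPKM in LPS-MIC-1. Both had higher values in each LPS-MIC-1 library than in each LPS library (differences of 0.35 ± 0.15 and 0.58 ± 0.25), without passing the test. With Pcna and Mcm3 they made 4 of 11 members in that order, which 32.5% of genes showed. Mcm2 had 3.08, 2.47 and 2.13 FPKM in control, 2.71, 3.37 and 2.99 FPKM in LPS, and 2.53, 3.03 and 3.73 FPKM in LPS-MIC-1. Cdk2 had 1.82, 2.19 and 1.88 FPKM in control, 2.70, 1.81 and 1.90 FPKM in LPS, and 1.47, 2.02 and 2.42 FPKM in LPS-MIC-1. The groups of both genes overlapped.

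When genes above 0 in at least 3 libraries were fitted without the FPKM filter, 4 of 40 members were called higher in LPS-MIC-1 than in LPS, and none lower, against 8.81% and 5.17% of 15434 genes. They were Ccne2, Cdt1, Rrm2 and Bub1b, and all 4 remained called without replicate 3. Rrm2 had 0.402, 0.254 and 0.0735 FPKM in control, 0.332, 0.370 and 0.220 FPKM in LPS, and 1.51, 1.53 and 2.86 FPKM in LPS-MIC-1, a difference of 2.30 ± 0.43 from LPS (adjusted p = 0.00287) and of 2.01 ± 0.44 without replicate 3 (adjusted p = 0.0106). Bub1b had 0.253, 0.168 and 0.361 FPKM in control, 0.170, 0.0640 and 0.0633 FPKM in LPS, and 0.954, 0.961 and 2.32 FPKM in LPS-MIC-1 (2.85 ± 0.40 over LPS, adjusted p = 0.000602). For both genes all 3 LPS-MIC-1 libraries lay above the other 6, and replicate 3 was the highest.

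Cdt1 had 0.393, 0.178 and 0.144 FPKM in control, 0.324, 0.253 and 0.215 FPKM in LPS, and 0.949, 0.949 and 1.77 FPKM in LPS-MIC-1 (1.82 ± 0.35 over LPS, adjusted p = 0.00336). Ccne2 was listed at 0.653, 0.624 and 0 FPKM in control, at 0 in the 3 LPS libraries, and at 0.691, 0.715 and 0.746 FPKM in LPS-MIC-1. No fold is given for it against LPS, and replicate 3 did not set it apart. Ccne1 had 0.0401, 0.0398 and 0.0403 FPKM in control, 0.243, 0.365 and 0.120 FPKM in LPS, and 0.473, 0.190 and 0.541 FPKM in LPS-MIC-1. It was called higher in LPS-MIC-1 than in control in this fit (1.76 ± 0.37, adjusted p = 0.00508), as were Mcm6 and Cenpa beside Cdt1, Rrm2 and Bub1b, 6 in all against a background of 8.58%, of which Cenpa was lost without replicate 3. The median difference of the 40 members from LPS was 0.66 with replicate 3 and 0.05 without it, and from control it was 0.50 and −0.14. The members called lower than control were Ccnd1 and Ccnd2, against 5.93%, joined without replicate 3 by Kif23 (−1.13 ± 0.25) and Tpx2 (−1.14 ± 0.29), both spindle proteins.

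The further lists were also counted in muscle, where 9.67% of all genes were called higher in LPS-MIC-1 than in LPS. Of 19 further replication genes tested 2 were higher in LPS-MIC-1 than in LPS, Gins1 of the replicative helicase (2.04 ± 0.56) and Orc6 (1.28 ± 0.13). Both were also higher than in control, where 9.33% of all genes were. The 2 of 19 lay near the shares of all genes in both comparisons. Of 10 further mitotic genes tested, Spc24, a subunit of a kinetochore complex, was lower in LPS than in control (−1.33 ± 0.25) and higher in LPS-MIC-1 than in LPS (1.44 ± 0.25). In LPS against control, 0.591% of all genes were called lower. Of 10 genes of the E2F, pocket protein and MuvB list, Lin52, a MuvB subunit (1.72 ± 0.11), and Tfdp2, an E2F partner (1.45 ± 0.09), were higher in LPS-MIC-1 than in LPS.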

How the data were processed

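RNA was sequenced from 18 libraries, 3 for each of 3 groups in each experiment, grouped by their labels. Per gene symbol, the authors deposited FPKM values from kallisto pseudoalignment and tximport. The labels' processing notes name mm9 as the genome build, and library depths are not given in the sources used here. The deposited DESeq2 comparison tables hold fold changes and p-values, which were not used. Only their mean normalized count signal, an average the authors took over 6 libraries, served to approximate depth. In the muscle table, 9 columns of per-sample values carry no name and were not used.

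Each table was fitted apart with limma 3.58.1 (R 4.3.3) on log2(FPKM + 0.1), with group means, an intensity trend and Benjamini-Hochberg adjustment over genes with a mean FPKM over 1 (10877 and 9475). Called genes differed by more than 1 on the log2 scale with an adjusted p under 0.001 (C2C12) or 0.05 (muscle). The fit was tested on simulated data for LPS-MIC-1 against LPS with 200 genes changed by 2 on the log2 scale, of which it recovered 80% among 10877 genes (C2C12) and 96.5% among 9475 (muscle), with 0 and 8 wrong calls. The changed genes were drawn from those with a log2(FPKM + 0.1) over 2 and all others were left unchanged, so the rates do not cover lower genes. Values in every library were given for Mki67, Top2a, the D-type and E-type cyclins and, per role and experiment, the 2 tested members with the largest difference of LPS-MIC-1 from LPS and the 1 with the largest of LPS from control. From each further list the 2 called genes with the largest difference were named, and of marker lists up to 3 of the most abundant. Library values of low muscle genes outside this rule (Rrm2, Bub1b, Cdt1 and the examples for replicate 3) and the gene ratios were picked with their values in view. The members and lists were chosen with earlier results of these data known. Alternatives were pseudocounts of 1 and 0.01, no filter, a mean FPKM over 5, quantile or median-ratio scaling, a fit with a replicate block, only 6 libraries at a time, no trend, and leaving out each library. A fit without the filter and without muscle LPS-MIC-1 replicate 3 was added after seeing the data. Figures were drawn with matplotlib 3.10.9.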

Additional observations from a re-analysis of the deposited data

Results flagged for a closer look

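Among the 11 members that passed the filter on low values in muscle, 3 were genes for which all libraries of a group moved one way in the C2C12 table and the opposite way in muscle. The differences between the experiments were not tested, and the tables were normalized separately. In the C2C12 table, treatment and cell identity cannot be told apart where LPS-MIC-1 is compared with LPS or control. The control and LPS libraries of that table lacked the markers of the labelled line. Ccnd2 in LPS against control differed by −0.55 on the log2 scale in muscle and by 1.44 in the C2C12 table. In LPS-MIC-1 against LPS it differed by −0.67 in muscle and by 2.94 in the C2C12 table, and in LPS-MIC-1 against control by −1.22 and 4.38. Ccnd3 differed by −0.16 in muscle and by 1.17 in the C2C12 table in LPS-MIC-1 against LPS, and by −0.40 and 0.89 in LPS-MIC-1 against control. Rrm1 in LPS against control differed by 0.30 in muscle and by −2.07 in the C2C12 table. With 3 libraries per group, no library was tested as an outlier.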

How the results depend on the processing

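No result changed its direction under an alternative while called. In the C2C12 table, the count of members called lower in LPS than in control was 33 and stayed between 30 and 33 when single libraries were left out and between 31 and 35 under the other alternatives, with 35 under quantile normalization, and the 1 call higher became 0 at a pseudocount of 1. For LPS-MIC-1 against LPS the 25 calls higher ranged from 22 to 27 and the 1 call lower from 1 to 2 without single libraries, the second being Cenpa (−1.24) without LPS-MIC-1 replicate 1. Against control the 4 calls higher became 2 with quantile normalization and 3 to 4 without single libraries, and the 15 calls lower ranged from 10 to 15 without single libraries and from 10 to 16 otherwise. In muscle, LPS-MIC-1 against LPS had 4 calls higher without the FPKM filter, 4 without the filter and replicate 3, 1 with only the 6 libraries compared (Rrm2, 2.30), and 0 to 1 without single libraries (Tk1 without LPS-MIC-1 replicate 2, a gene listed at 0 in the LPS libraries and under the filter with all libraries). Rrm2 stood at 0.402 FPKM or less in the control and LPS libraries, and passed the filter in fits of 6 libraries through its LPS-MIC-1 values. The calls lower than LPS were 1 without the filter and replicate 3, and 0 to 1 without single libraries. Against control the calls higher were 1 at a pseudocount of 0.01, 6 without the filter, 5 without the filter and replicate 3, 1 with only the 6 libraries compared and 0 to 1 without single libraries. At a mean FPKM over 5 there were 0 calls lower, because Ccnd1 and Ccnd2 (1.71 and 1.37 FPKM on average) did not enter the test. The 2 calls lower became 0 at a pseudocount of 1 and 4 without the filter and replicate 3, and were 1 to 2 without single libraries. The causes of the other changes were not tested. Quantile normalization moved the median of all muscle genes to −0.12 in LPS-MIC-1 against LPS and to −0.10 against control. Replicate numbers did not pair the libraries (correlations of same-numbered libraries from −0.08 to 0.08). With the replicate number as a block, 31 members were called lower in C2C12 LPS than in control, 23 higher in LPS-MIC-1 than in LPS and 13 lower for LPS-MIC-1 against control, and no muscle call changed.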
